A study of Mus musculus with 16 samples.

Results

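The 41 genes described here encode the contractile, calcium-handling and energy proteins of skeletal muscle fibres, with the isoforms of fast and slow fibres kept apart. They were taken by gene symbol and not by a cut on measured values, but earlier results of these data were known when they were chosen. All 41 were found among the 54532 genes of the table. The tissue was inguinal white adipose tissue (iWAT), the subcutaneous fat pad of the groin, of 16 male mice that were 8 to 10 weeks old at the start. All mice carried Apn-rtTA, a doxycycline-dependent activator driven by the adiponectin promoter of adipocytes, and all ate chow with 200 mg/kg doxycycline for 5 days. Has2_TG mice also carried TRE-Has2, which makes the hyaluronan synthase Has2 in adipocytes, and Has2_WT mice were their littermates with Apn-rtTA. PH20_TG mice carried TRE-PH20, which makes the hyaluronidase PH20 (gene Spam1), and PH20_WT mice were the littermates of that line. Each group held 4 mice and 1 library per mouse. The study compared each transgenic group with its own control to see how more or less hyaluronan changes expression in iWAT. Both activator and transgene act in adipocytes, and none of the 41 genes was a target of either.

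A skeletal muscle fibre contracts when myosin heavy chains pull on actin filaments, under control of calcium through troponin. Fast fibres use the heavy chains Myh4 (type IIb), Myh1 (type IIx) and Myh2 (type IIa) with fast light chains and troponins, and slow fibres use Myh7 with the slow set. Fast glycolytic fibres are also known for parvalbumin, the calcium pump SERCA1 and a large supply of glycolytic enzymes, and oxidative fibres for myoglobin. Inguinal fat lies over the muscles of the abdominal wall and thigh. Beige adipocytes in this pad are known to use some muscle-type proteins for calcium and creatine cycling. Levels below are in FPKM, reads scaled to gene length and to the library's read total, so that genes can be compared with each other. Values in a group are listed in the order of replicates 1 to 4, and 0 stands for no read.

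The libraries held 14421692 to 26751729 reads on genes. At these depths the 3 reads that a count of 0 allows were worth 0.0183 to 0.0350 FPKM for Myh4 and 0.0717 to 0.137 FPKM for Acta1, and all such limits cover counting error only. Adipocyte markers were high in every library: the 13 adipocyte genes summed to 11517 to 30033 FPKM, and none of them was at 0 in any group. PH20_TG4 stood apart through Gm23935, at 84835 FPKM against 1447 to 11259 FPKM in the other 15 libraries. The targeted genes were checked in every library. Has2 was at 2.28, 1.86, 3.24 and 2.97 FPKM in Has2_TG and 0.417 to 0.806 FPKM in Has2_WT. Spam1 had 0, 6, 12 and 5 reads in PH20_TG and 0 in each of the other 12 libraries, so that the library labelled PH20_TG1 did not show its transgene at this depth. Has2 was also at 3.32 FPKM in PH20_TG1 and 3.26 FPKM in PH20_TG4, the range of Has2_TG, against 0.380 and 0.0990 FPKM in PH20_TG2 and PH20_TG3. B cell markers were high in Has2_WT1, Has2_WT2, PH20_WT1 and PH20_WT3 alone, where the 10 genes summed to 343.1, 274.4, 346.3 and 128.9 FPKM against 1.93 to 6.53 FPKM elsewhere. The counts below were also taken without PH20_TG1, without PH20_TG4 and without the 4 libraries with B cell transcripts.

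The fibre genes were detected in every group, at levels that differed widely between the libraries of a group. They took 0.0175% to 0.0437% of the reads in Has2_WT and 0.106% to 0.362% in PH20_WT, ranges that did not overlap. In Has2_TG they took 0.145% and 0.308% of the reads in replicates 1 and 2, and 0.0113% and 0.0114% in replicates 3 and 4. Has2_TG was thus divided into a pair of libraries near the top of the series and a pair at its bottom. In PH20_TG they took 0.0140%, 0.0138%, 0.0247% and 0.103%, so that PH20_TG4 lay close to the lowest PH20_WT library and the other 3 lay well under it. The mean of log2(FPKM + 0.1) over the 41 genes was -0.24 ± 0.55 in Has2_WT, 0.07 ± 2.44 in Has2_TG, 1.94 ± 0.61 in PH20_WT and -0.50 ± 1.41 in PH20_TG (SD, n = 4 each). Of the 41 genes, 27 had no read in Has2_TG3 and 24 none in Has2_TG4, against 4 and 2 in Has2_TG1 and Has2_TG2. Bulk libraries cannot tell fewer fibres in a sample from less of these RNAs per fibre.

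**Figure D1:**
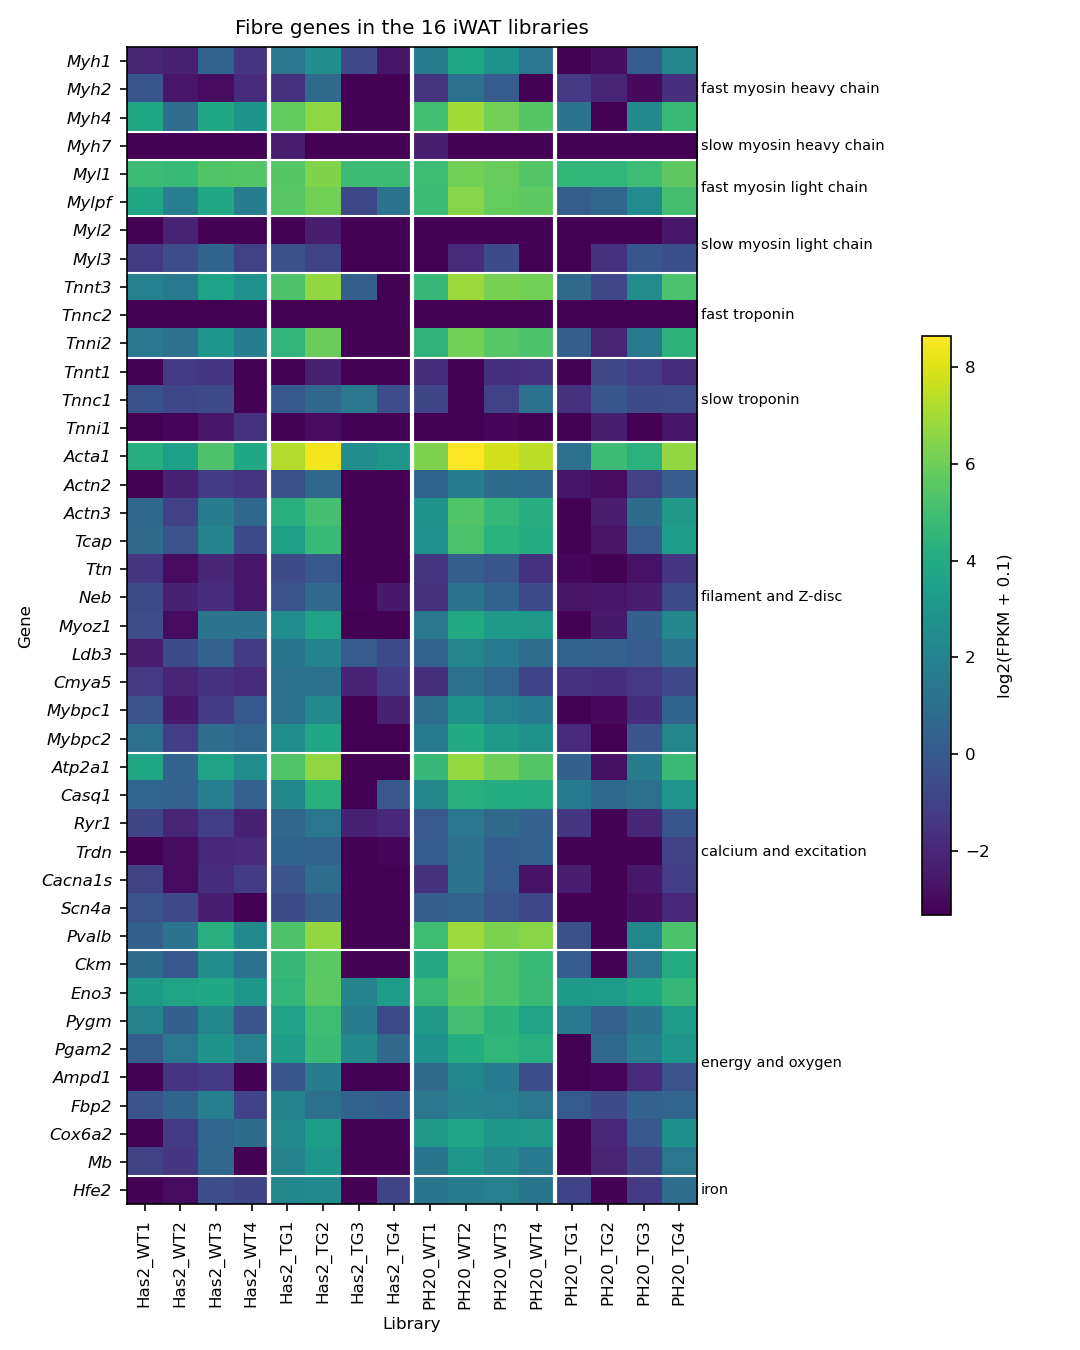
Heat map of log2(FPKM + 0.1) for the 41 fibre genes (rows, by role) in the 16 libraries (columns, by group). Most rows are bright in Has2_TG1, Has2_TG2 and the 4 PH20_WT libraries and darkest in Has2_TG3 and Has2_TG4, where 27 and 24 genes had no read. Myh7, Myl2, Tnnt1, Tnni1 and Tnnc2 are dark throughout, and the slow form Mybpc1 is bright in the same libraries as the fast genes.

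Among the myosin heavy chains the fast form Myh4 (ENSMUSG00000057003, GRCm38 chromosome 11 from 67238029 to 67260446, plus strand) was the highest in the 13 libraries in which it was read. Myh4 was at 13.2, 1.80, 13.8 and 7.27 FPKM in Has2_WT and at 53.6, 96.5, 0 and 0 FPKM in Has2_TG. It was at 32.0, 125.6, 70.6 and 44.9 FPKM in PH20_WT and at 2.24, 0, 4.92 and 27.6 FPKM in PH20_TG. Every PH20_WT library thus lay above every PH20_TG library, while the Has2_TG libraries lay on both sides of Has2_WT. Its neighbour Myh1, the IIx chain, was at 0.139, 0.108, 1.32 and 0.256 FPKM in Has2_WT, 2.54, 5.76, 0.530 and 0.0602 in Has2_TG, 3.25, 12.8, 6.90 and 2.46 in PH20_WT and 0, 0.0396, 1.00 and 4.64 in PH20_TG. The same libraries were high, but PH20_TG4 lay above PH20_WT1 and PH20_WT4. Myh2, the IIa chain of oxidative fast fibres, was at 0.818, 0.0643, 0.0330 and 0.169 FPKM in Has2_WT, 0.239, 1.63, 0 and 0 in Has2_TG, 0.251, 1.94, 0.980 and 0 in PH20_WT and 0.294, 0.141, 0.0252 and 0.207 in PH20_TG. Its groups overlapped in both comparisons. The slow chain Myh7 had reads in only 2 libraries, at 0.0967 FPKM (21 reads) in Has2_TG1 and 0.101 FPKM (20 reads) in PH20_WT1.

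Of the summed FPKM of the 4 heavy chains, Myh4 made 82.8% to 94.9% in the 13 libraries in which it had a read. In these 13 libraries Myh1 made 0% to 16.8% and Myh2 0.217% to 11.6%, except in PH20_WT4, which had no read of Myh2. The other 3 libraries held few heavy chain reads: Has2_TG3 and Has2_TG4 had 63 and 8, all of Myh1, and PH20_TG2 had 25, with 78.1% of the FPKM from Myh2. The fast chains together made 99.7% to 100% of the sum in the 14 libraries with at least 50 reads of them. Over these 13 libraries the sum itself ran from 1.97 to 140.3 FPKM, with Myh4 the main chain at both ends. Between 18.9% and 30.5% of the 50-base stretches of Myh4, Myh1 and Myh2 also occur in other genes, mostly each other, so a part of their reads cannot be assigned with certainty.

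**Figure D2:**
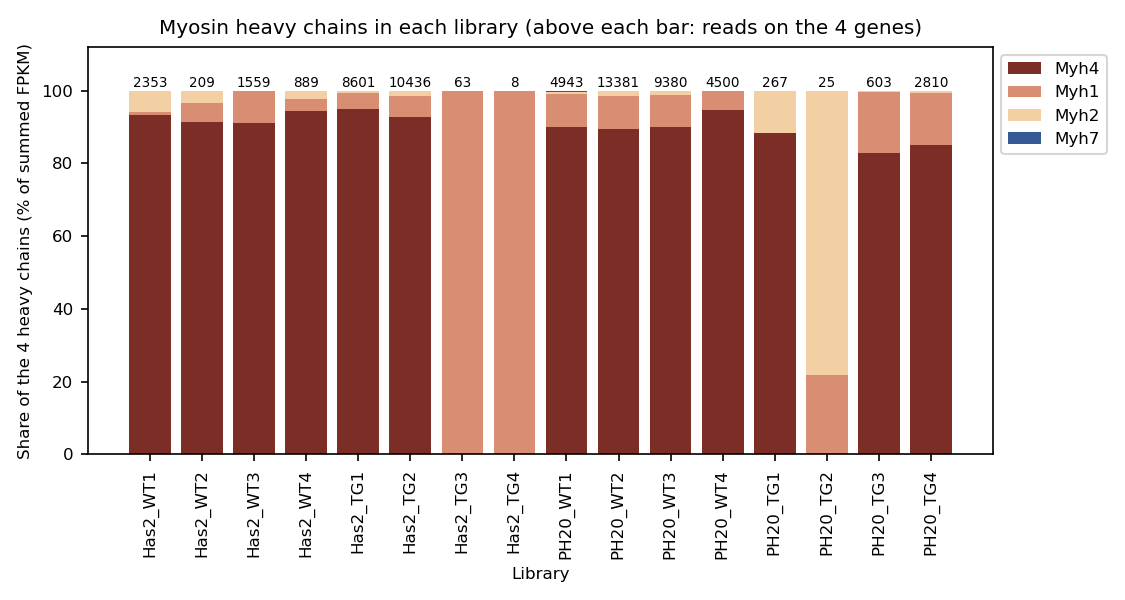
Stacked bars of the share of Myh4, Myh1, Myh2 and Myh7 in their summed FPKM (vertical axis, %) in each of the 16 libraries, with the number of reads on the 4 genes above each bar. Myh4 makes 82.8% or more wherever it was read, and the 3 libraries without it hold 8 to 63 reads.

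The light chains did not all follow the heavy chains. Mylpf (ENSMUSG00000030672), the fast regulatory light chain, was at 13.1, 3.40, 13.9 and 3.11 FPKM in Has2_WT, 46.1, 67.4, 0.503 and 2.25 in Has2_TG, 29.4, 88.6, 55.4 and 50.8 in PH20_WT and 1.04, 1.47, 5.36 and 34.6 in PH20_TG. As for Myh4, Has2_TG1 and Has2_TG2 were high and Has2_TG3 and Has2_TG4 low. Myl1, the fast essential light chain, kept a floor instead. It was at 29.0, 27.3, 41.2 and 43.7 FPKM in Has2_WT, 44.0, 82.8, 29.3 and 29.4 in Has2_TG, 30.6, 67.7, 57.2 and 42.4 in PH20_WT and 23.6, 23.0, 29.8 and 50.9 in PH20_TG. In the 3 libraries with no read of Myh4 it still stood at 23.0 to 29.4 FPKM. Of the 50-base stretches of Myl1, 11.7% also occur in the pseudogene Mylf-ps, and what this adds to the floor was not tested. The slow light chains were low. Myl3, which slow fibres share with the heart ventricle, was at 0 in 5 libraries and reached 1.35 FPKM in Has2_WT3. Myl2, the slow regulatory chain, had 9 reads in all, spread over 3 libraries.

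The fast troponins T and I rose and fell with Myh4 across the libraries. Tnnt3 (ENSMUSG00000061723) was at 3.69, 2.72, 12.1 and 6.48 FPKM in Has2_WT, 39.4, 102.4, 1.11 and 0 in Has2_TG, 24.7, 112.5, 73.5 and 68.3 in PH20_WT and 1.66, 0.476, 5.30 and 37.3 in PH20_TG. Only PH20_TG4 reached into the range of PH20_WT. Tnni2, the inhibitory subunit, was at 2.7, 2.11, 7.55 and 3.18 FPKM in Has2_WT, 22.3, 59.2, 0 and 0 in Has2_TG, 22, 70.7, 45.2 and 39.6 in PH20_WT and 1.13, 0.134, 2.76 and 21.3 in PH20_TG, where the PH20 groups just missed each other. Tnnc2, the calcium-binding subunit of fast fibres, had no read in any of the 16 libraries, while Tnnt3 had 13786 reads and Tnni2 8005 over the same libraries. The count of 0 allows 0.138 to 0.263 FPKM. Of its 800 exon bases, 592 (74.0%) are covered by exons of Ube2c on the other strand, and whether the counting used strand is not given in the sources used here. Ube2c was at 0 to 2.79 FPKM, and the part of this overlap in the missing reads was not tested.

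The slow troponins followed no such pattern. Tnnt1 was at 0, 0.312, 0.267 and 0 FPKM in Has2_WT, 0, 0.109, 0 and 0 in Has2_TG, 0.198, 0, 0.207 and 0.231 in PH20_WT and 0, 0.479, 0.354 and 0.191 in PH20_TG. Tnni1 stayed at or under 0.233 FPKM and had 34 reads over the 16 libraries. Tnnc1, which slow fibres share with the heart, was at 0.705, 0.496, 0.566 and 0 FPKM in Has2_WT, 0.876, 1.45, 2.57 and 0.597 in Has2_TG, 0.462, 0, 0.390 and 2.07 in PH20_WT and 0.224, 0.821, 0.576 and 0.607 in PH20_TG. Its highest value came from Has2_TG3, a library with no read of Myh4, and it was at 0 in PH20_WT2, the library with the most Myh4. The fast form made 89.7% to 100% of the troponin T pair in the 12 libraries with at least 50 reads of Tnnt3, and 93.2% to 100% of the troponin I pair in the 12 libraries with at least 50 reads of Tnni2. In PH20_TG2, with few reads of either form, the fast form made 49.9% of the troponin T pair (15 reads of Tnnt3 and 21 of Tnnt1) and 57.9% of the troponin I pair (4 reads of Tnni2 and 7 of Tnni1). Mybpc2, the fast myosin-binding protein C, made 60.6% to 84.9% of the pair with the slow form Mybpc1 in 11 libraries with at least 50 reads of it.

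Skeletal alpha-actin, Acta1 (ENSMUSG00000031972), was the highest of the 41 genes on average. It was at 17.5, 11.1, 39.1 and 14.4 FPKM in Has2_WT, 154.4, 341.6, 5.77 and 7.82 in Has2_TG, 81.0, 396.0, 228.3 and 165.9 in PH20_WT and 1.98, 28.9, 20.7 and 102.9 in PH20_TG. It was read in all 16 libraries, those without Myh4 included. The Z-disc alpha-actinin of fast fibres, Actn3, was at 6.78 to 41.4 FPKM in PH20_WT and 0 to 8.56 FPKM in PH20_TG, and the more general form Actn2 was lower, at 1.32 to 3.28 and 0.0265 to 0.980 FPKM. Tcap, the titin cap, ran from 0 in 3 libraries to 37.9 FPKM in PH20_WT2. The giant proteins titin (Ttn) and nebulin (Neb) reached only 1.14 and 2.31 FPKM, a level per length, from 10414 and 4160 reads in all. The PH20 groups overlapped for Ldb3, a Z-disc adaptor, at 1.02 to 1.99 FPKM in PH20_TG and 1.29 to 4.29 FPKM in PH20_WT, and for Cmya5, at 0.212 to 0.515 and 0.217 to 2.08 FPKM.

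Among the calcium genes, Pvalb (ENSMUSG00000005716), the calcium buffer of fast fibres, was at 1.20, 2.26, 17.7 and 5.13 FPKM in Has2_WT, 38.7, 102.9, 0 and 0 in Has2_TG, 29.8, 116.3, 77.4 and 91.7 in PH20_WT and 0.673, 0, 4.32 and 37.6 in PH20_TG. Atp2a1, the fast calcium pump SERCA1, was at 13.3, 1.30, 11.8 and 5.80 FPKM in Has2_WT, 42.2, 99.3, 0 and 0 in Has2_TG, 25.4, 105.7, 62.8 and 42.9 in PH20_WT and 1.19, 0.0434, 3.26 and 27.9 in PH20_TG. For both genes PH20_TG4 lay above PH20_WT1 and the other 3 PH20_TG libraries far under it. The calcium store protein Casq1 was at 4.23 to 17.8 FPKM in PH20_WT and 1.60 to 7.59 FPKM in PH20_TG. The parts of the release complex were lower: the release channel Ryr1 was at 0.916 to 2.56 FPKM in PH20_WT and 0.00460 to 0.826 FPKM in PH20_TG, and its partner Trdn at 0.985 to 2.15 and 0 to 0.390 FPKM. The sodium channel Scn4a, which carries the fibre action potential, was at 0.740, 0.521, 0.10 and 0 FPKM in Has2_WT, 0.558, 1.12, 0 and 0 in Has2_TG, 1.14, 1.29, 0.756 and 0.487 in PH20_WT and 0, 0, 0.0341 and 0.150 in PH20_TG, so that the PH20 groups were well apart.

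Ckm, the creatine kinase of muscle, was at 1.79, 0.886, 5.64 and 2.18 FPKM in Has2_WT, 25.3, 47.5, 0 and 0 in Has2_TG, 14.6, 56.2, 36.5 and 26.4 in PH20_WT and 1.00, 0, 2.53 and 16.8 in PH20_TG. Myoglobin (Mb), the oxygen store of oxidative fibres, was at 0.418, 0.269, 1.42 and 0 FPKM in Has2_WT, 3.94, 7.55, 0 and 0 in Has2_TG, 2.40, 7.92, 4.79 and 2.85 in PH20_WT and 0, 0.135, 0.442 and 2.45 in PH20_TG. Both were at 0 in Has2_TG3 and Has2_TG4. The glycolytic enzyme Eno3 kept a floor as Myl1 did: it was at 8.91, 12.4, 13.8 and 8.04 FPKM in Has2_WT, 23.1, 49.4, 4.02 and 9.71 in Has2_TG, 27.3, 51.6, 37.6 and 28.2 in PH20_WT and 8.89, 9.40, 13.0 and 24.5 in PH20_TG. Its PH20 groups did not overlap. Fbp2, fructose bisphosphatase of muscle, was also read in all 16 libraries, at 2.53 to 3.94 FPKM in PH20_WT and 0.582 to 1.39 FPKM in PH20_TG. Cox6a2, the muscle form of a cytochrome oxidase subunit, was at 8.05 to 12.5 FPKM in PH20_WT and at 0, 0.148, 0.881 and 6.30 FPKM in PH20_TG. Hfe2 (hemojuvelin), a co-receptor in iron regulation that muscle makes in quantity, was at 0, 0.0283, 0.610 and 0.465 FPKM in Has2_WT, 4.52, 5.17, 0 and 0.448 in Has2_TG, 2.39, 3.29, 3.60 and 2.38 in PH20_WT and 0.432, 0, 0.325 and 1.87 in PH20_TG.

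**Figure D3:**
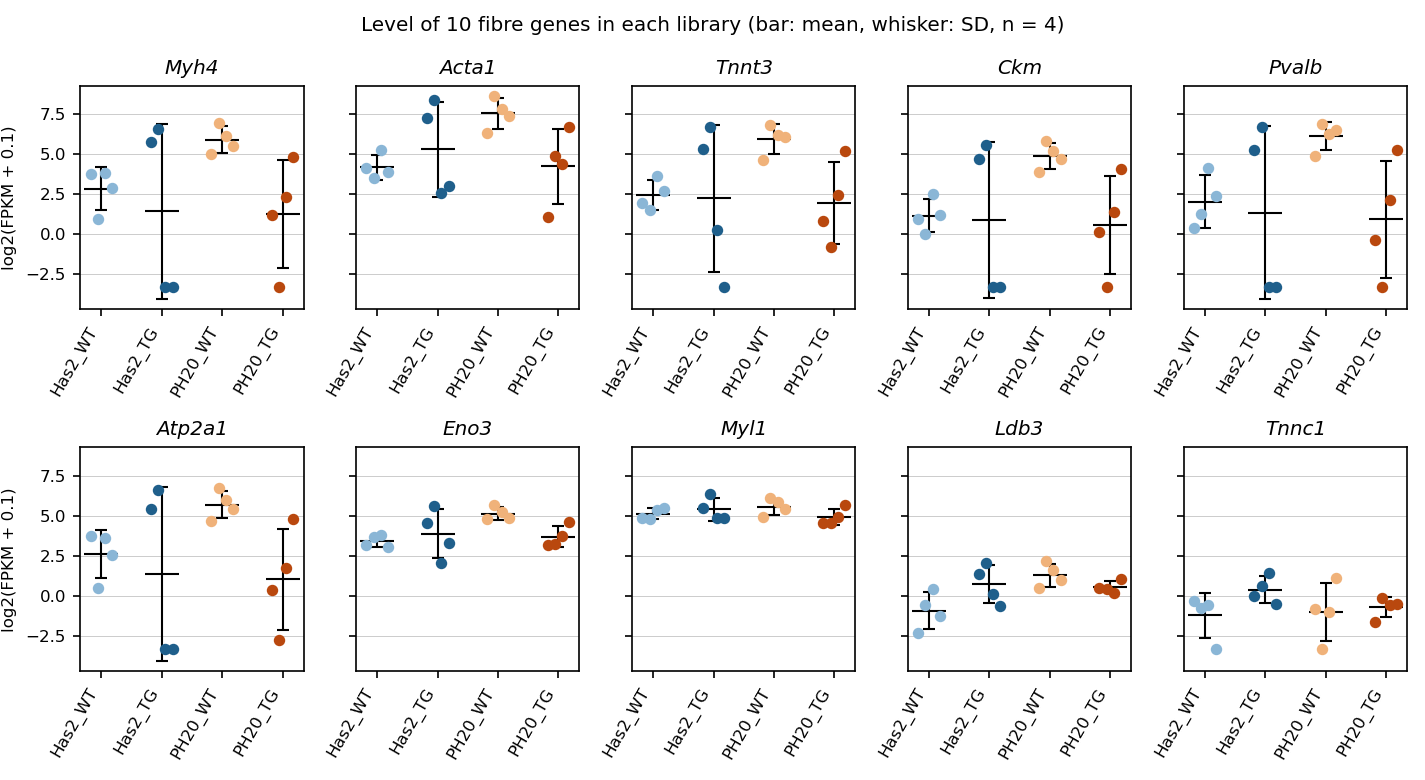
Points for log2(FPKM + 0.1) of 10 fibre genes in each library, by group, with the mean (bar) and SD (whiskers) of 4 libraries. Has2_TG is split into high and low libraries for Myh4, Acta1, Tnnt3, Ckm, Pvalb and Atp2a1, Eno3 and Myl1 keep a floor, and the Tnnc1 points of all 4 groups overlap.

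In the PH20 comparison the fibre genes were lower with the transgene. Scn4a fell from 0.917 ± 0.364 FPKM in PH20_WT to 0.0459 ± 0.0709 FPKM in PH20_TG, Trdn from 1.37 ± 0.536 to 0.0992 ± 0.194 FPKM and Fbp2 from 3.14 ± 0.714 to 1.05 ± 0.359 FPKM (SD, n = 4 each). Myh4 fell from 68.3 ± 41.4 to 8.70 ± 12.8 FPKM and Acta1 from 217.8 ± 133.2 to 38.6 ± 44.3 FPKM. At an unadjusted p under 0.05 by limma, 29 of the 34 members tested were lower in PH20_TG and 0 were higher, while 3.39% of all 12532 genes tested were lower and 3.2% higher. After Benjamini-Hochberg adjustment over all genes, 0 members and 0 genes of any kind passed. The median log2 fold change of the 34 was -3.25, against 0.01 over all genes tested, and the values ran from -5.22 for Pvalb to -0.65 for Myl1.

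By role, 2 of 3 fast heavy chains, 1 of 2 fast light chains, both tested fast troponins, 9 of 11 filament and Z-disc genes, 6 of 7 calcium and excitation genes, all 8 energy genes and Hfe2 were lower. Of these, Actn2, Tcap, Myoz1, Mybpc1, Trdn, Scn4a, Fbp2, Ampd1, Cox6a2, Mb, Pgam2 and Hfe2 reached the read minimum in PH20_WT and not in PH20_TG. Their calls are no support for a difference. The smallest p-values were those of Scn4a (log2 fold change -2.83, SE 0.47, limma adjusted p = 0.506), Trdn (-3.22, SE 0.58, adjusted p = 0.563), Fbp2 (-1.54, SE 0.29, adjusted p = 0.563) and Mybpc1 (-3.72, SE 0.81, adjusted p = 0.664). They were followed by Eno3 (-1.45, SE 0.34), Pygm (-2.47, SE 0.61), the muscle glycogen phosphorylase, Ampd1 (-3.15, SE 0.79), the AMP deaminase of muscle, Actn2 (-2.64, SE 0.67), Ryr1 (-2.38, SE 0.64) and Mylpf (-3.60, SE 0.96), all with a limma adjusted p of 0.664. Myh4 (-4.65, 95% interval -7.93 to -1.36) and Pvalb (-5.22, 95% interval -8.73 to -1.71) had larger folds and wider errors. Level did not order the folds: Acta1 and Myl1, with the highest mean FPKM, were at -3.30 (SE 1.05) and -0.65 (SE 0.31). Myl1 (-0.65), Ldb3 (-0.74), Cacna1s (-1.63), Cmya5 (-1.10) and Myh2 (-1.10) were not called, with limma adjusted p from 0.731 to 0.810. For 11 members every PH20_TG library lay under every PH20_WT library: Myh4, Eno3, Tnni2, Cox6a2, Fbp2, Mybpc1, Hfe2, Ryr1, Actn2, Trdn and Scn4a. Of all genes tested, 2.33% showed this.

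All 34 tested members reached a mean of 50 reads in PH20_WT alone and 20 of the 41 did so in PH20_TG alone, so members that entered through PH20_WT only had to differ. Scn4a, Trdn, Fbp2, Mybpc1, Ampd1, Actn2, Cox6a2 and Hfe2, named above for small p-values or groups without overlap, entered in this way. So did Tcap, Myoz1, Mb and Pgam2, which were also called. The tests of all these genes, and their groups without overlap, are therefore no support for a difference. Of the 20, 17 were called lower, and with no minimum 29 of 40 were. The count was 27 of 34 without PH20_TG1, 31 of 34 without PH20_TG4 and 24 of 28 without the 4 libraries with B cell transcripts. The B cell list moved in the same direction, with 5 of 10 genes lower in PH20_TG, against 3.39% of all genes tested. In PH20_WT the B cell sums were 346.3, 6.53, 128.9 and 4.69 FPKM. The fibre gene sums of these libraries were 385.4, 1445, 915.3 and 729.9 FPKM. The part of the B cell content in the fibre gene levels was not tested.

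In the Has2 comparison the Has2_TG libraries lay on both sides of their controls for most of the fibre genes. Myh4 was at 9.04 ± 5.66 FPKM in Has2_WT and 37.5 ± 46.7 FPKM in Has2_TG, Acta1 at 20.5 ± 12.6 and 127.4 ± 158.9 FPKM and Ckm at 2.62 ± 2.08 and 18.2 ± 22.9 FPKM (SD, n = 4 each), with the SD above the mean in Has2_TG each time. By limma, 1 of 30 members tested was higher in Has2_TG and 0 were lower at an unadjusted p under 0.05, while 6.25% of all 12606 genes tested were higher and 3.75% lower. The member was Ldb3, which rose from 0.551 ± 0.493 to 1.98 ± 1.56 FPKM (log2 fold change 1.66, SE 0.71, limma adjusted p = 0.476). The median log2 fold change of the 30 was 0.28, against -0.03 over all genes tested, and 20 of the 30 values were above 0. The mean on the log scale and the mean FPKM differ in sign for some members: Myh4 had a log2 fold change of -1.41 (95% interval -6.41 to 3.59) although its mean FPKM was higher in Has2_TG.

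No member had groups that did not overlap in the Has2 comparison, and of all genes tested 2.11% did not overlap with Has2_TG lower and 4.08% with Has2_TG higher, so a count of 0 among 30 is near the background. The count of members higher in Has2_TG was 3 without Has2_TG3, 4 without Has2_TG4 and 0 without any 1 of Has2_TG1, Has2_TG2, Has2_WT1, Has2_WT2 or Has2_WT4. Has2_TG1 and Has2_TG2, the libraries with many fibre reads, had the lower Has2 of their group (2.28 and 1.86 FPKM), and the part of this in the fibre genes was not tested.

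**Figure D4:**
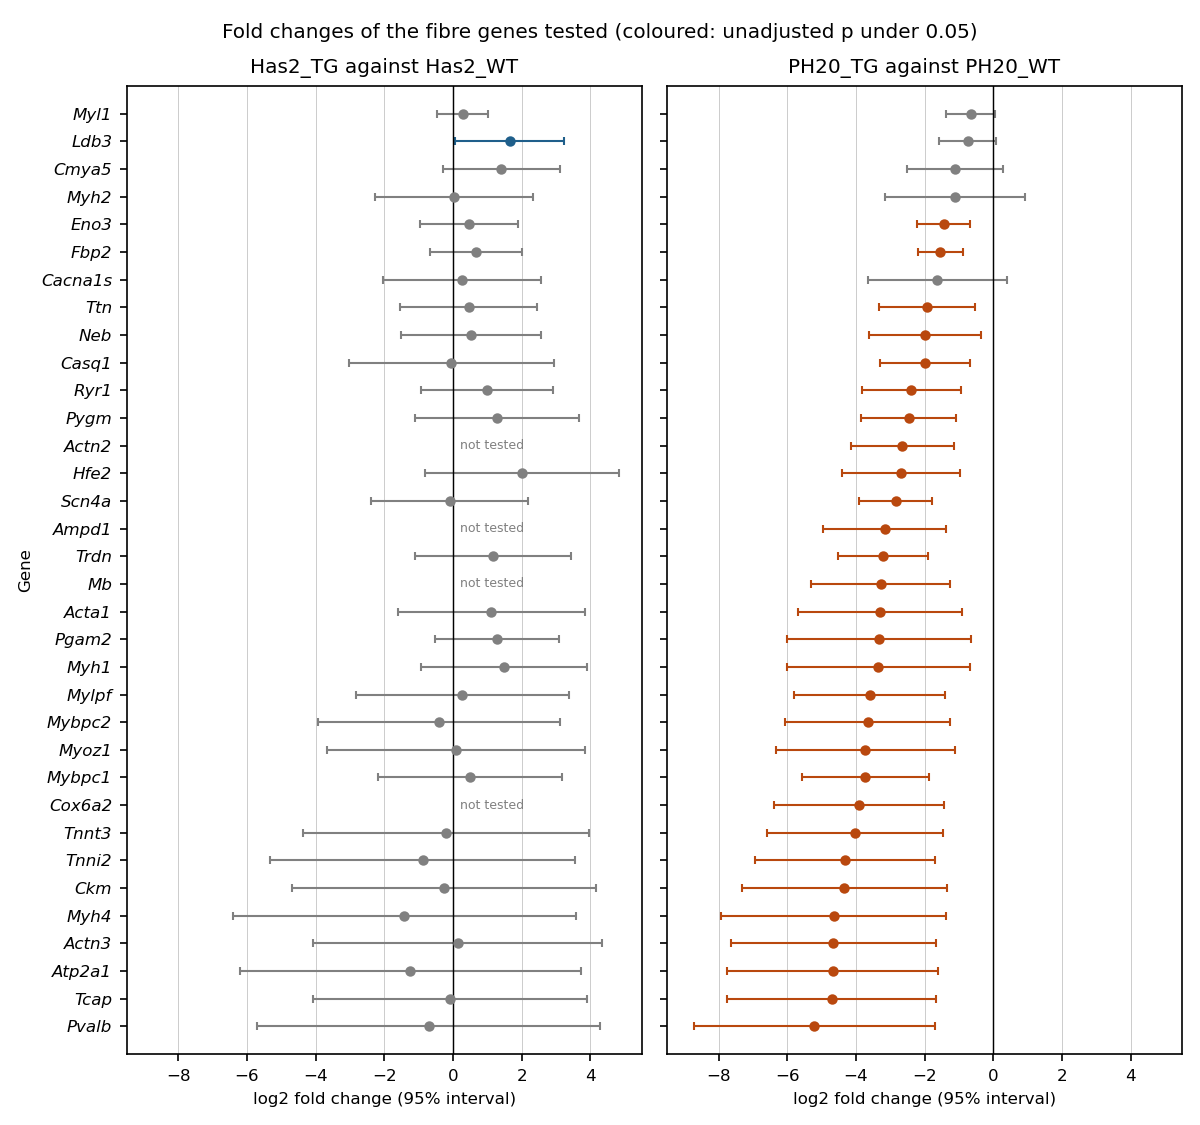
Log2 fold changes of the fibre genes tested (points) with 95% intervals (bars) in the Has2 comparison (left) and the PH20 comparison (right), coloured where the unadjusted limma p was under 0.05. In the PH20 comparison all 34 points lie under 0 and 29 are coloured, while in the Has2 comparison 1 of 30 is.

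The difference between the comparisons was tested in a fit of all 16 libraries. Of 33 members tested, 17 had a lower fold change in the PH20 than in the Has2 comparison and 0 had a higher one at an unadjusted limma p under 0.05, and none passed adjustment. Of all 12593 genes tested, 4.03% were lower and 3.68% higher. The smallest p-values were those of Trdn (difference in log2 fold change -4.40, SE 1.21, limma adjusted p = 0.567), Fbp2 (-2.21, SE 0.71, adjusted p = 0.598) and Ryr1 (-3.38, SE 1.13, adjusted p = 0.598). Acta1 (-4.42, limma adjusted p = 0.613) was also called. Myh4 (-3.23, 95% interval -9.52 to 3.05), Tnni2 (-3.43, -8.86 to 1.99) and Pvalb (-4.51, -10.91 to 1.89) were not. Of the genes called, Trdn, Fbp2, Hfe2, Ampd1, Mybpc1, Actn2 and Mb missed the minimum of reads in both Has2_WT and PH20_TG. All of them reached it in PH20_WT, and all but Actn2 also in Has2_TG. High values in PH20_WT and Has2_TG lower this difference, so the calls of these genes are no support for it. The count depended on single libraries: it was 8 without Has2_TG1, 10 without Has2_TG2, 27 without Has2_TG3, 27 without Has2_TG4, 10 without PH20_WT2 and 11 without PH20_TG1, and it was 5 without the 4 libraries with B cell transcripts.

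The control groups differed from each other. Both are Apn-rtTA littermates on the same chow, yet 15 of 33 members were higher in PH20_WT than in Has2_WT and 0 were lower by limma at an unadjusted p under 0.05, while 4.66% of all 12593 genes tested were higher and 5.61% lower. None of the 33 passed adjustment. Only 22 members reached a mean of 50 reads in Has2_WT alone, and 8 of these were called. The other 7 (Trdn, Actn2, Ampd1, Hfe2, Fbp2, Mybpc1 and Mb) reached it in PH20_WT, where they are high, and not in Has2_WT. The minimum was taken over all 16 libraries, and all of the 7 but Actn2 also reached it in Has2_TG. Their entry rested in part on PH20_WT, so their calls are no support for a difference. The 15 were Ldb3 (log2 difference 2.24, SE 0.60, limma adjusted p = 0.303), Trdn (3.02, SE 0.86, adjusted p = 0.325), Actn2 (3.08, SE 0.89, adjusted p = 0.337), Ampd1 (3.37, SE 1.07, adjusted p = 0.362), Pygm, Eno3, Myh1, Hfe2, Ryr1, Fbp2, Acta1, Mybpc1, Casq1, Mb and Mylpf. For 24 members every PH20_WT library lay above every Has2_WT library, which held for 3.2% of all genes tested. Among the 24, Trdn, Actn2, Ampd1, Hfe2, Mybpc1, Mb, Tcap and Myoz1 missed the minimum in Has2_WT and reached it in PH20_WT. Their lack of overlap is no support for a difference either. The median log2 difference over the 33 was 2.96, against 0.01 over all genes tested, and the PH20 comparison shares the PH20_WT libraries with this one. The mean over the members was -0.50 in PH20_TG, with libraries from -1.67 to 1.38, and -0.24 in Has2_WT, with libraries from -0.77 to 0.53. The difference between these groups was not tested. Line, litter and time of collection cannot be told apart between the control groups. The count was 9 without PH20_WT2 and 2 without the 4 libraries with B cell transcripts, which leaves 2 libraries in each control group.

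The members moved together across libraries. Over the 33 members with a mean of at least 50 reads, the median correlation of a pair across the 16 libraries was 0.836 (Pearson's r on log2(FPKM + 0.1), 528 pairs, range 0.242 to 0.996), and 326 pairs were above 0.8. With the mean over the members, Actn3 and Tcap had an r of 0.99, Ckm 0.97 and Myh4 0.94, while Fbp2 had 0.74, Ldb3 0.68 and Myh2 0.61. These points share library, depth and scaling, and the members are part of the mean. Relative to PH20_WT2, the library with the most fibre reads, the median member stood at 84.2% in Has2_TG2, 62.3% in PH20_WT3, 43.9% in PH20_WT4, 39.5% in Has2_TG1, 29.9% in PH20_TG4 and 26.1% in PH20_WT1. The quartiles over the members were 75.7% and 93.6% in Has2_TG2, 36.3% and 58.5% in PH20_WT4, 23.6% and 36.1% in PH20_TG4 and 20.8% and 39.2% in PH20_WT1. The same median was 1.33% in PH20_TG1, 0.470% in PH20_TG2, 5.28% in PH20_TG3 and 0% in Has2_TG3 and Has2_TG4, and between 2.89% and 11.1% in Has2_WT. Myl1 stood at 34.0% to 122% in all 15 libraries and Eno3 at 7.80% to 95.8%.

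The 10 genes outside the 41 whose pattern was most like the mean over the members included Eef1a2 (r = 0.97), an elongation factor of muscle and neurons, Mylk2 (0.97), the myosin light chain kinase of skeletal muscle, Hrc, Myot, Tpm2, Xirp2, Nrap, Myom2 and Apobec2 (0.90). In all, 10 genes outside the 41 had an r above 0.9 and 19 above 0.8. These too are descriptions over libraries that share depth and scaling. Of the 10, 7 were on a list of 41 other skeletal muscle genes. They were chosen on the same libraries, so their own differences between the groups follow in large part from the choice and are not counted here.

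Since these genes moved together, the bases before their start sites were searched for motifs of the factors known to act in muscle. RefSeq promoters (GRCm38.p6) matched 31 of the 41 genes by symbol. Within 250 bases before the start, on either strand, the E-box CAGCTG, a site of the MyoD family, was found for 15 of the 31 (48.4%) and in 14.7% of all 27025 genes with a promoter. The E-box variant CACCTG was found for 10 (32.3%), against 19.4% of all. The MEF2 motif was found for 5 (16.1%, all genes 3.42%), the CArG box of serum response factor for 4 (12.9%, all genes 1.62%), the TEAD motif CATTCC for 10 (32.3%, all genes 14.4%) and the letters TATAAA for 6 (19.4%, all genes 14.3%). A match is a description of the sequence and says nothing of a factor's binding in this tissue. The 150 bases before the start are shown for 4 fibre genes of different roles, with the motifs in capitals. They lie at chr8:123894776-123894925 (minus strand) for Acta1, chr11:67237662-67237811 (plus strand) for Myh4, chr7:127211458-127211607 (plus strand) for Mylpf and chr11:5803797-5803946 (minus strand) for the glycolytic mutase Pgam2, and none of the windows overlaps an annotated exon.

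Acta1: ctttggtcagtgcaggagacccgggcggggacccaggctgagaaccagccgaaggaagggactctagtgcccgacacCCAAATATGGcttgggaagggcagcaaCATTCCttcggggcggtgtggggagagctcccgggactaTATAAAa
Myh4: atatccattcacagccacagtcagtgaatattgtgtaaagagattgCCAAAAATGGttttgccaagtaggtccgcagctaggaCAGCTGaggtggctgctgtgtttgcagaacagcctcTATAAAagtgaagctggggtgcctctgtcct
Mylpf: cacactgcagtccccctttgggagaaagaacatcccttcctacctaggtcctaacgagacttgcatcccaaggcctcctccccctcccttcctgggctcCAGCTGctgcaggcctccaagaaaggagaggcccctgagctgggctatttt
Pgam2: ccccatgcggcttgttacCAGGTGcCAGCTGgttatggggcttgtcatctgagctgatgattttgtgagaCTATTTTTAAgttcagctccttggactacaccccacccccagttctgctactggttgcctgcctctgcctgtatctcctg

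In Acta1 the capitals mark a CArG box from 73 to 64 bases before the start, the TEAD letters from 46 to 41 and the letters TATAAA from 7 to 2. The starts used are those of RefSeq, and for all 4 genes they differ from the gene bounds in the files. Those bounds are a gene end of 123894751 for Acta1 and 5803733 for Pgam2, and a gene start of 67238029 for Myh4. The Mylpf window lies inside the gene as given there, from 127208890 to 127214298. In Myh4 the capitals mark a CArG box from 104 to 95 bases before, an E-box from 67 to 62 and the letters TATAAA from 31 to 26. Mylpf has 1 E-box from 51 to 46 bases before the start. Pgam2 has E-boxes of both kinds, the CACCTG variant read here from the other strand, from 132 to 127 and from 125 to 120 bases before the start, and a MEF2 motif from 80 to 71 bases before. In the PH20 comparison each of the 4 genes was called, with a log2 fold change of -3.30 for Acta1, -4.65 for Myh4, -3.60 for Mylpf and -3.31 for Pgam2. Pgam2 reached the minimum of reads in PH20_WT (mean 240.25) and not in PH20_TG (mean 42.0), so its call is no support for a difference.

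Of the 41 genes on the list of other skeletal muscle genes, 18 were tested, 10 were lower in PH20_TG and 0 higher (median log2 fold change -1.40), among them Myot (-3.71, SE 0.91, limma adjusted p = 0.664), a Z-disc protein, Nrap (-3.01, SE 0.76), Klhl41 (-3.12, SE 0.89) and Pdlim3 (-1.59, SE 0.57). Some genes of that list were not called: Art3, an ADP-ribosyltransferase, was at 28.9 to 58.8 FPKM and Phkg1, a phosphorylase kinase subunit, at 2.49 to 8.82 FPKM in all 16 libraries, those without Myh4 included, with log2 fold changes of -0.05 (SE 0.24) and 0.04 (SE 0.39) in the PH20 comparison. In the Has2 comparison 1 of 17 was called, Pdlim3, which was higher in Has2_TG (1.45, SE 0.64, limma adjusted p = 0.491). In the difference between the comparisons 6 of 18 were lower and 0 higher, and 9 of 18 were higher in PH20_WT than in Has2_WT.

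Genes of muscle stem cells and of the fibre's nerve contact were low, and some were hardly read while others were read in every library. The 10 myogenic factor and satellite cell genes summed to 7.60 to 13.1 FPKM and the 8 neuromuscular junction genes to 2.65 to 8.79 FPKM. The satellite cell factor Pax7 had 3 reads, Myf5 29, Myod1 26 and Myog 50 over the 16 libraries. Mef2c, a transcription factor of muscle and other cells, was at 0.885 to 4.0 FPKM in every library, those without Myh4 included, and was lower in PH20_TG (log2 fold change -0.65, SE 0.24, limma adjusted p = 0.702). Of the endplate genes, the acetylcholine receptor subunit Chrnb1 was at 0.784 to 4.14 FPKM in all libraries, whereas Chrna1 had 45 reads in all. The developmental myosins Myh3 and Myh8 had 25 reads and 1 read. Of the cardiac genes Tnni3 was at 0.783 FPKM on average and Myh6 at 0.0688 FPKM, low levels beside those of the fast fibre genes.

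**Figure D5:**
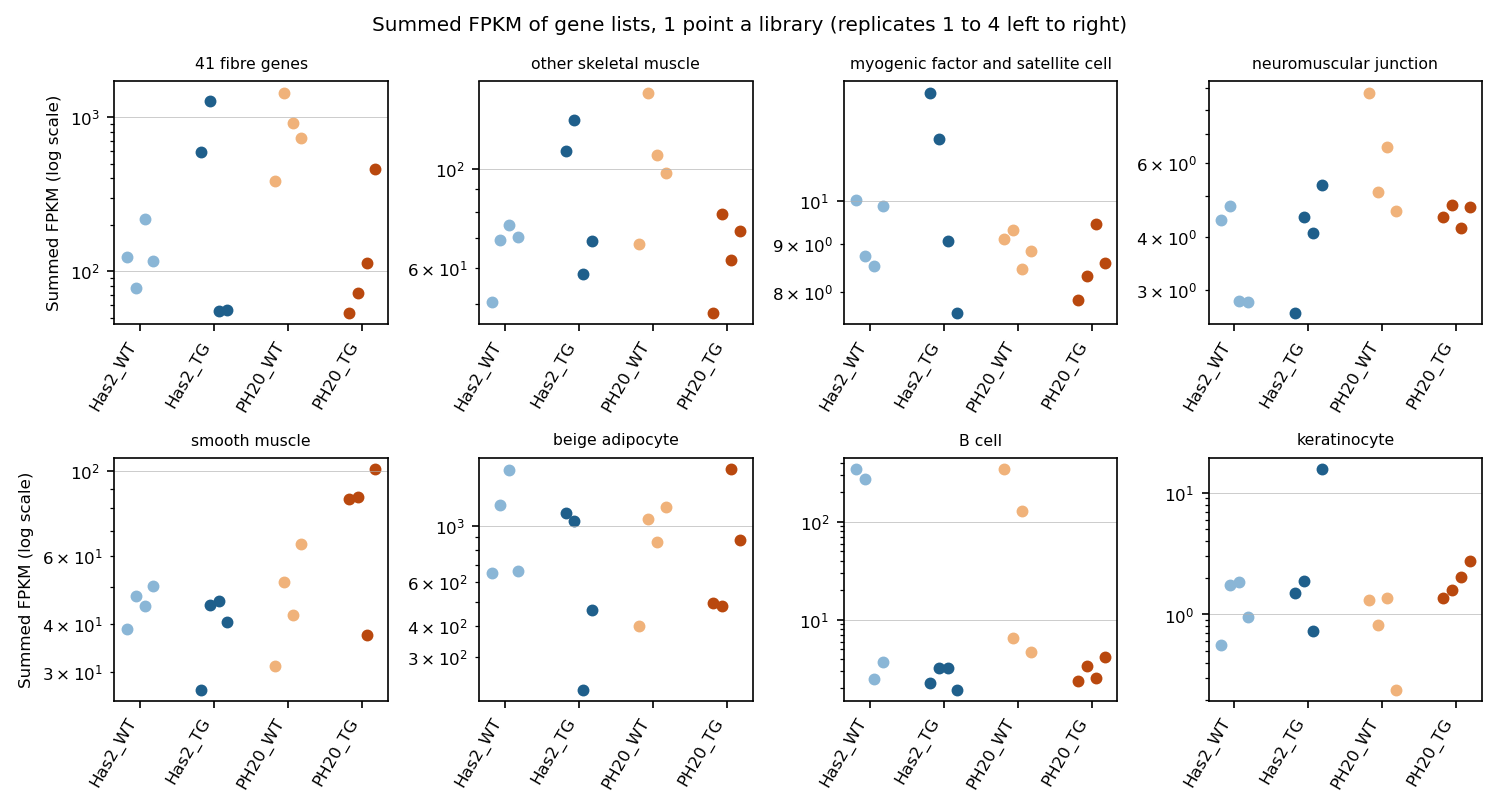
Summed FPKM (log scale) of the 41 fibre genes and of 7 other lists, 1 point per library. The fibre genes run from 53.2 to 1445 FPKM, and the B cell sums are high in 4 control libraries only. The list of myogenic factors and satellite cell genes, which includes Mef2c, stays between 7.60 and 13.1 FPKM. Its highest points are in Has2_TG1 and Has2_TG2.

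The beige adipocyte list was also higher in Has2_TG1 and Has2_TG2, where its 9 genes summed to 1129 and 1044 FPKM, than in Has2_TG3 and Has2_TG4, at 223.0 and 461.7 FPKM. Unlike the fibre gene sums of 592.5 and 1272 FPKM, the higher beige sums lay within the range of Has2_WT (648.1 to 1667 FPKM). By limma 3 of the 9 beige genes, Otop1, Kcnk3 and Ucp1, were lower in Has2_TG at an unadjusted p under 0.05 and 0 were higher. Between the PH20 groups it overlapped, at 400.4 to 1193 FPKM in PH20_WT and 478.9 to 1682 FPKM in PH20_TG. In the PH20 comparison 0 of 7 tested were called in either direction, with a median log2 fold change of -0.01. Ucp1, the uncoupling protein of beige fat, was at 206.4, 36.3, 7.31 and 16.4 FPKM in Has2_TG and at 82.6, 215.1, 275.2 and 74.4 FPKM in Has2_WT (log2 fold change -2.16, SE 0.90, limma adjusted p = 0.459). SERCA2 (Atp2a2), the calcium pump of beige fat, stayed at 18 to 31.2 FPKM, with a log2 fold change of 0.19 (SE 0.13) in the PH20 comparison against -4.67 (SE 1.35) for the muscle form Atp2a1. The brain-type creatine kinase Ckb was at 14.4 to 51.4 FPKM, with a log2 fold change of 0.29 (SE 0.40) against -4.33 (SE 1.32) for Ckm. Of the creatine and calcium list, Gamt was the only gene of 6 called in the PH20 comparison, and it was higher. Keratinocyte genes marked Has2_TG4, with Krt5 at 5.33 and Krt14 at 4.35 FPKM there and no more than 0.0958 FPKM elsewhere. The list summed to 15.7 FPKM in that library against 0.240 to 2.75 FPKM in the others. The smooth muscle list summed to 26.9 to 64.4 FPKM in 13 libraries and to 84.4, 85.4 and 101.3 FPKM in PH20_TG1, PH20_TG2 and PH20_TG4, and 0 of its 5 tested genes were called in the PH20 comparison. The part of these cell types and of the beige genes in the fibre gene levels was not tested.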

How the data were processed

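Reads were mapped by the authors with STAR (2.7.9a) on GRCm38, after FastQC (0.11.9) and MultiQC (1.12) checks. The deposited values are FPKM, with a length for every gene. FPKM multiplied by length gave whole reads for 100% of the values (tolerance 0.01 reads), which served for the read minimum and the counts given. DESeq2 appears in the submitters' processing notes and was not used here.

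The 16 libraries were grouped by their titles. Over the 120 library pairs, chi-square per degree of freedom was at least 28.7, so every library was counted as its own sample. Each comes from 1 mouse. The Has2 and PH20 comparisons each used their 8 libraries in limma (3.58.1, R 4.3.3): the moderated two-sided test on log2(FPKM + 0.1) with a variance trend, over every gene averaging 50 reads or more per library. Adjusted p-values are Benjamini-Hochberg over all genes tested. Fold changes on this scale understate those of low genes. The difference and the control comparison used all 16 libraries. The fits were tested on simulated data.

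The members, lists and tests were chosen with earlier results of these data known. All 41 members may be named, with tests for those called (the 10 of smallest p where more pass), up to 4 of the highest genes of each other list and the 10 genes most like the members' mean. Values in every library are given for the heavy chains, troponins, Acta1, Ckm, Mb, Atp2a1, Pvalb and the highest member of each role, and, chosen after their values were seen, for Mylpf, Scn4a, Cox6a2 and Ucp1. Myot, Nrap, Klhl41, Pdlim3, Phkg1, Mef2c, Gamt and the satellite cell, endplate and keratinocyte genes were likewise named after their values were seen. Coordinates are those of the files; exon overlaps come from GENCODE M21, which has the same coordinates for 40 of 41 members. Tnni2, Tnnt3 and 8 other members had no RefSeq promoter. A few genes of the lists are not reported here.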

Additional observations from a re-analysis of the deposited data

Results flagged for a closer look

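The fold changes in the PH20 and the Has2 comparison differed by the limma test of the difference itself for 17 of 33 members at an unadjusted p under 0.05, and none passed adjustment. The 10 of smallest p were Trdn (difference in log2 fold change -4.40), Fbp2 (-2.21), Ryr1 (-3.38), Pgam2 (-4.59), Hfe2 (-4.70), Ampd1 (-4.24), Ldb3 (-2.40), Myh1 (-4.83), Pygm (-3.75) and Mybpc1 (-4.22), with adjusted p from 0.567 to 0.606. The PH20_WT and the divided Has2_TG libraries both enter this value. Trdn, Fbp2, Hfe2, Ampd1 and Mybpc1 reached the minimum of reads in PH20_WT and Has2_TG and not in Has2_WT or PH20_TG. High values in PH20_WT and Has2_TG lower the difference, so the tests of these genes are no support for it.

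Dixon's ratio marked a single library in 7 of 74 sets of 4 values, where chance gives about 1 in 20 for continuous values. All 7 concern slow isoforms with few or no reads. In 5 of them the other 3 values are all 0, so that any read is marked and the chance rate does not apply. Myh7 was at 0.0967 FPKM in Has2_TG1 and 0.101 FPKM in PH20_WT1, and at 0 in the others of these groups. Tnnt1 was at 0.109 FPKM in Has2_TG2 alone of its group and at 0 FPKM in PH20_WT2 alone. Tnnc1 was at 0 FPKM in Has2_WT4 alone. Tnni1 was at 0.0335 FPKM (2 reads) in Has2_TG2 and 0.0141 FPKM (1 read) in PH20_WT3, within the 3 reads that a count of 0 allows, and at 0 in the others. The split of Has2_TG into a high and a low pair of libraries is not of a kind that this ratio can mark.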

How the results depend on the processing

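The count of members lower in PH20_TG, 29, ranged from 24 to 31 over all alternatives run, and no member was called higher there under any of them. The count of members higher in Has2_TG, 1, became 0 with no minimum of reads, 0 with a mean FPKM of at least 1, 2 with quantile normalization, 0 with the replicate block and 0 without the libraries with B cell transcripts, and 0 to 4 with 1 library left out. The 17 members lower in the difference became 28 with a pseudocount of 1, 9 with a mean FPKM of at least 1, 5 without the libraries with B cell transcripts and 8 to 27 with 1 library left out. The 15 members higher in PH20_WT became 27 with a pseudocount of 1, 2 without the libraries with B cell transcripts and 9 to 18 with 1 library left out. The causes were not tested, except that leaving out libraries or genes leaves fewer to test. Of 553 values of called members under alternatives, 529 kept direction and threshold, 24 kept the direction only and 0 reversed. The median log2 fold change of all genes tested had a size of at most 0.073 in every setting, the main one included. Leaving out the libraries with B cell transcripts was chosen after seeing the data.

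The replicate numbers did not pair the samples: same-numbered libraries had correlations of -0.18 to 0.13 in the Has2 line and -0.04 to 0.42 in the PH20 line. With the replicate block 29 members were lower in PH20_TG and 16 in the difference. The control groups belong to different lines, so no block was fitted between them.

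Each group has 4 libraries, and within Has2_TG the share of fibre reads ran from 0.0113% to 0.308%, so intervals are wide. The slow heavy chain, light chains and troponins, with 9 to 243 reads each over the 16 libraries, were under the minimum and were not tested.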
